A study of Mus musculus with 9 samples.

Results

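Reporter-positive thymic cells (ZsG plus) were set against reporter-negative medullary thymic epithelium (ZsG minus mTEC), over 7402 well-measured genes of the 18194 genes measured. A gene counted as well measured when its mean log2 intensity reached 10, or an intensity of 1024, in at least one of the 2 groups. Of these genes, 4856 reached the level in both groups, 531 in ZsG plus only and 2015 in ZsG minus mTEC only. A gene that reached it in 1 group only had to differ in level, so the 3 sets are kept apart. Nearest the threshold, Mpzl1 (1024 in ZsG plus, 832 in ZsG minus mTEC) and Fech (855 and 1024) lay just inside. Cdkn2d (740 and 1024) and Bhlhb9 (126 and 1024) lay just outside.

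Each group had 3 arrays, and 3 arrays of reporter-negative cortical epithelium (ZsG minus cTEC) added to the estimate of the spread. All 3 groups were of C57BL/6 background, and per the labels the reporter mice carried a bacterial artificial chromosome with ZsGreen, a green fluorescent protein, at the start codon of Tslp. The mice were 8 to 20 weeks old, and 5 ng of total RNA per sample was amplified. The sources used here do not give the gates of the sort, any pooling of animals or the compartment that gave the ZsG plus cells. A reporter on an artificial chromosome follows the regulatory sequence that it carries, which limits it as a record of the gene's own transcript. The titles name thymic epithelium and the cell type label says keratinocytes, and groups were taken from the titles. No label says that the replicates came from separate animals, so p-values measure the spread between these samples only, which may be technical.

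Medullary thymic epithelial cells display proteins of many other tissues to developing T cells, so that self-reactive T cells are removed or turned into regulatory cells. Aire and Fezf2 drive much of this display, and signals of the TNF receptor family through NF-kappaB drive the maturation of the cells. Late stages of the medullary lineage take on features of skin, gut, tuft and neuroendocrine cells. Tslp encodes thymic stromal lymphopoietin, a cytokine of barrier epithelium that acts on dendritic cells.

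Markers of the labelled cells were bright in both groups. Aire read 15751, 23622 and 13180 in ZsG plus against 18140, 17983 and 23992 in ZsG minus mTEC, and 1236 to 2570 in cortical cells. Prss16, a protease of the cortex, read 1543, 2069 and 505 in ZsG plus against 2556, 4051 and 2513 in ZsG minus mTEC, against 41699 to 55909 in ZsG minus cTEC. Aire overlapped between ZsG plus and ZsG minus mTEC and lay above the cortical range, and Prss16 lay lower in ZsG plus than on any array of the other groups. Other cortical markers did not all go the way of Prss16. Of 17 measured, 3 had every ZsG plus array above every ZsG minus mTEC array (17.6%, against 5.77% of all genes). The reverse held for 4 (23.5%, against 12.3%), and the list median was −0.29 (log2), against −0.33 over all genes. Tslp was no well-measured gene, at 526, 23.4 and 953 in ZsG plus against 244, 472 and 359 in ZsG minus mTEC, and the groups overlapped.

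The ZsG plus arrays were the less precise side of the comparison. Among the 4856 genes bright in both groups, the median SD of a gene was 0.94 on the log2 scale in ZsG plus, compared with 0.33 in ZsG minus mTEC and 0.36 in the cortical arrays. An SD above 1 occurred in 2242 (46.2%), 163 (3.36%) and 282 (5.81%) of them. The spiked hybridisation controls had geometric means of 49548, 75975 and 93872 in ZsG plus and 31301 to 34334 in ZsG minus mTEC, a 2.15-fold difference. The Bacillus lys controls were 8.65-fold brighter in ZsG plus, and Gapdh signal at the 3' end over that at the 5' end was 10.6, 6.71 and 8.21 against 4.66 to 5.97. The phe and dap controls read up to 341, on replicate 2 of ZsG plus, and this reading serves below as a mark of background for all groups. Their highest readings were 117 to 139 on the ZsG minus mTEC arrays and 128 to 241 on the ZsG minus cTEC arrays. Their geometric means were 43.9, 66.3 and 54.6 in ZsG plus and 18.5 to 27.9 in ZsG minus mTEC. The part of these differences in the results was not tested.

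Genes that were bright on every ZsG minus mTEC array were often below the level on 1 or 2 ZsG plus arrays. Of 5609 genes at 10 or more on all 3 ZsG minus mTEC arrays, ZsG plus reached 10 on 3 arrays for 3106 (55.4%), on 2 for 1430 (25.5%), on 1 for 804 (14.3%) and on none for 269 (4.8%). For ZsG minus cTEC the counts were 4474 (79.8%), 432 (7.7%), 302 (5.38%) and 401 (7.15%). More genes were thus below the level on every array in ZsG minus cTEC, and more were below it on 1 or 2 arrays in ZsG plus. Exactly 1 ZsG plus array lay in the range of the phe and dap controls for 944 of the genes (16.8%), against 174 (3.1%) for ZsG minus cTEC. Replicate 3 of ZsG plus reached 10 for 3883 of the genes, and replicates 1 and 2 for 4578 and 4521.

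**Figure D1:**
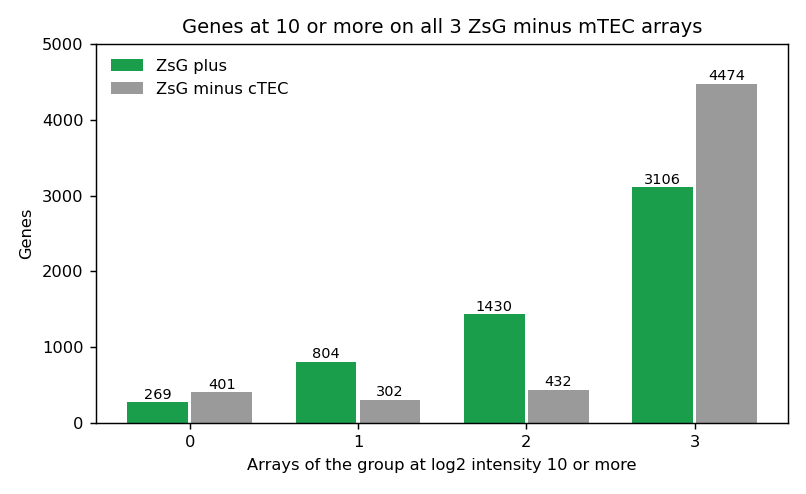
Genes at 10 or more on all 3 ZsG minus mTEC arrays, by the number of arrays (x axis) on which ZsG plus (green) or ZsG minus cTEC (grey) also reached 10, with the number of genes on the y axis. ZsG plus reached it on all 3 arrays for 3106 genes and ZsG minus cTEC for 4474.

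The difference between the groups also moved with the level of a gene. Levels were taken from the ZsG minus cTEC arrays, which are on neither side of the comparison. The median log2 difference, ZsG plus minus ZsG minus mTEC, was −0.66 for the 2303 genes at 10 to 11, −0.31 at 12 to 13, 0.01 at 14 to 15 and 0.28 for the 134 genes at 15 or more. Of those 134 genes 39.6% had every ZsG plus array above every ZsG minus mTEC array, while of the genes at 10 to 11 it was 3.52%. The median over all genes was −0.33 as deposited, 0.01 after quantile normalization, 0.30 after centring each array at its median and −1.43 scaled to the hybridisation controls. A small difference of a very bright gene therefore depends on the scaling, and list medians below are also given relative to all genes. Lower readings in bulk RNA cannot tell fewer cells of a type from less RNA per cell.

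**Figure D2:**
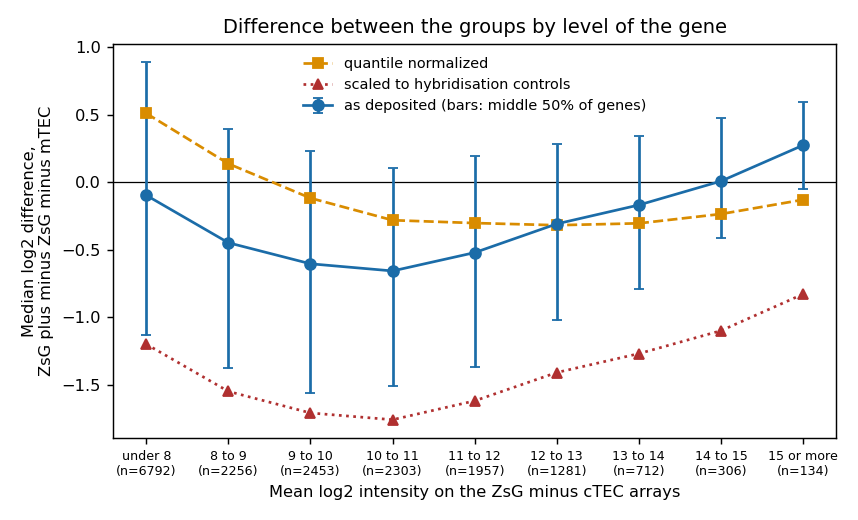
Median log2 difference between ZsG plus and ZsG minus mTEC (y axis) by mean log2 intensity in ZsG minus cTEC (x axis, number of genes below each bin). Blue points are deposited values with bars for the middle 50% of genes, orange squares are quantile normalized values and red triangles are values scaled to the hybridisation controls; the deposited median runs from −0.66 at 10 to 11 up to 0.28 at 15 or more.

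Of the 7402 well-measured genes, 12 fell in ZsG plus past an adjusted p of 0.05 and 0 (0.0%) rose (limma, Benjamini-Hochberg over all 18194 genes). That is 0.162% of them. Of all genes measured, 3 were higher (0.0165%) and 37 lower (0.203%), together 0.22%. All 12 had reached the level in ZsG minus mTEC only. The level rule thus set their direction and their brightness in that group, and the gaps given below are description only. At an unadjusted p under 0.05, 187 well-measured genes were higher (2.53%) and 903 lower (12.2%). Of the 187, 91 had reached the level in ZsG plus only, and of the 903, 737 in ZsG minus mTEC only, so the level rule set the direction of these, and nothing is read from the pooled balance. The 12 genes were Lrwd1, Cdk5, Enho, Htra1, Nefm, Eola1, Rwdd3, Fam81a, Lpar1, Tpbg, Mis12 and Wscd1. On the ZsG plus arrays 11 of them lay below the highest phe or dap reading on all 3 arrays, so the sizes of their falls are not settled.

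Lrwd1, a gene of the machinery that marks DNA replication origins, was one of the 12. It read 63.7, 59.6 and 18.1 in ZsG plus against 4599, 5102 and 1323 in ZsG minus mTEC. The groups lay far apart, and the ZsG minus mTEC level was 9.22 times the highest control reading. The difference was −6.26 ± 0.77 (log2, SE, n = 3 per group; limma adjusted p = 0.0328), and both probe sets had this sign. Mis12, a kinetochore gene, read 173, 102 and 138 against 3637, 1988 and 1228, a difference of −3.95 ± 0.62 (limma adjusted p = 0.0499).

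Htra1, a secreted serine protease, read 231, 58.9 and 59.4 in ZsG plus against 8400, 5701 and 2075 in ZsG minus mTEC. Enho, which encodes the secreted peptide adropin, read 62.8, 46.8 and 17.7 against 2156, 2714 and 2939. Both were separated by a wide gap, with differences of −5.64 ± 0.76 and −6.11 ± 0.64 (limma adjusted p = 0.0363 and 0.0299). Tpbg, a surface glycoprotein that inhibits Wnt signalling, read 229, 444 and 200 against 3571, 5151 and 4784. Of the 12 genes it alone had a ZsG plus reading above the controls, and it differed by −4.03 ± 0.57 (limma adjusted p = 0.0409). Lpar1, a receptor for lysophosphatidic acid, read 54.9, 143 and 22.6 against 1190, 3182 and 1762, a difference of −5.07 ± 0.76 (limma adjusted p = 0.0439). In ZsG minus cTEC, Tpbg and Lpar1 were brighter still, at levels of 8149 and 6513.

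Cdk5, a cyclin-dependent kinase, read 29.8, 39.5 and 21.4 in ZsG plus against 1828, 795 and 5662 in ZsG minus mTEC. Nefm, a neurofilament gene and the 1 called member of the neuroendocrine and neuronal list, read 16.6, 61.8 and 18.5 against 970, 1879 and 806. Neither gene had a ZsG plus reading near the ZsG minus mTEC range, and the differences were −6.11 ± 0.74 and −5.42 ± 0.67 (limma adjusted p = 0.0328 for both).

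Rwdd3, which promotes SUMO conjugation, read 33.9, 29.4 and 36.7 in ZsG plus against 1346, 1346 and 1026 in ZsG minus mTEC, the tightest pair of groups of the 12. Fam81a, at 28.0, 26.8 and 53.5 against 1304, 1324 and 1056, was separated as clearly, and its ZsG minus cTEC level was 119. The differences were −5.21 ± 0.60 and −5.16 ± 0.56 (limma adjusted p = 0.0326 and 0.0299). Eola1 and Wscd1 fell too, with differences of −5.22 ± 0.67 and −3.65 ± 0.53 (limma adjusted p = 0.0362 and 0.0426).

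Different probe sets did not always go the same way. Of 4 probe sets for Enho 3 had the sign of the one used, as did 2 of 3 each for Cdk5, Lpar1, Tpbg and Rwdd3 and 1 of 2 for Wscd1. With the mean of all probe sets, Cdk5 (−1.97), Enho (−1.46), Lpar1 (−1.94), Tpbg (−1.41), Wscd1 (−1.15), Rwdd3 (−3.11) and Htra1 (−3.38) no longer passed. Their limma adjusted p ran from 0.0585 for Htra1 to 0.492 for Wscd1. The sizes of these falls thus depend on the probe set. Lrwd1 still passed, at −4.51 (limma adjusted p = 0.036), and Eola1, Fam81a, Mis12 and Nefm had 1 probe set each. The calls also rested on the estimate of the spread. A fit of only the 6 arrays, array weights and leaving out any 1 ZsG minus mTEC array or ZsG minus cTEC replicate 1 or 2 each left 0 of the well-measured genes called. Leaving out ZsG minus cTEC replicate 3 left 3, and leaving out ZsG plus replicate 1, 2 or 3 gave 101, 90 and 33 lower and 4, 1 and 1 higher.

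**Figure D3:**
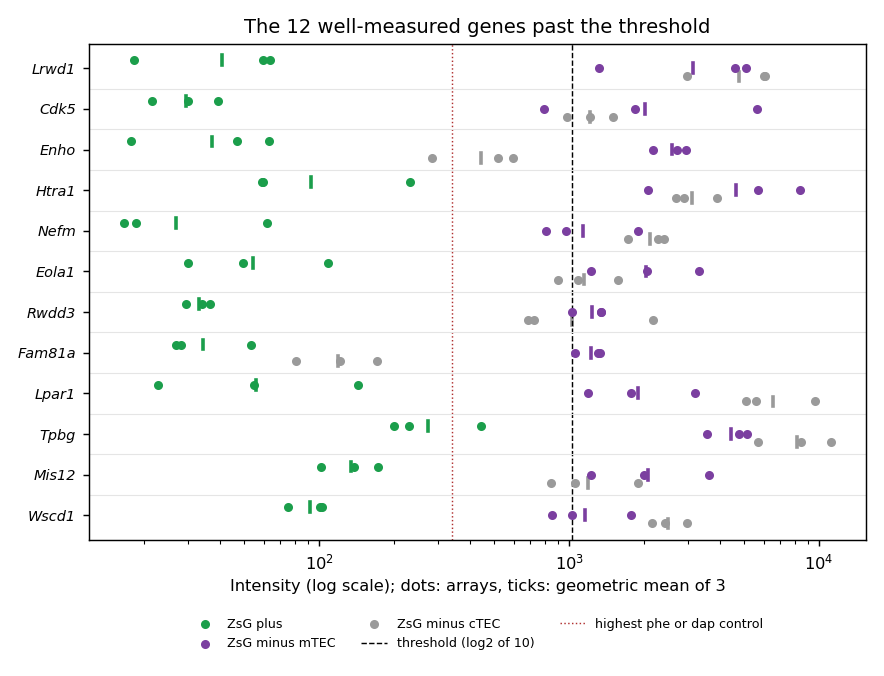
Intensities (x axis, log scale) of the 12 well-measured genes past the threshold (y axis), with 1 dot per array and a tick at the geometric mean of 3 arrays for ZsG plus (green), ZsG minus mTEC (purple) and ZsG minus cTEC (grey). The dashed line marks 1024 and the dotted line 341, the highest phe or dap control; the green dots lie at or left of the dotted line, except 1 of Tpbg at 444.

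Among the 4856 genes bright in both groups, 0 (0.0%) passed the threshold in limma, and the lowest adjusted p was 0.089. At an unadjusted p under 0.05, 96 were higher (1.98%) and 166 lower (3.42%), against 3.2% and 10.2% of all genes. That balance turned with the scaling: 468 were higher and 24 lower with centring, 101 and 183 with quantile normalization, and 3 and 1262 scaled to the hybridisation controls. Every ZsG plus array lay above every ZsG minus mTEC array in 367 of them (7.56%) and below in 468 (9.64%), against 5.77% and 12.3% of all genes. With 1 ZsG plus array left out, 8, 1 and 1 of these genes passed, for replicates 1, 2 and 3.

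Next are the genes bright in both groups that passed when an offset of 100 was added to each intensity. They were 3 of RNA handling and S100a10, lower in ZsG plus, and Setd6, higher. Hnrnpr, an RNA-binding protein of the spliceosome, read 1498, 1829 and 1413 in ZsG plus against 7854, 8645 and 9423 in ZsG minus mTEC. Its relative Hnrnpll, which controls alternative splicing in lymphocytes, read 1532, 1283 and 1647 against 6347, 8941 and 8036. Both had narrow groups with a wide gap between them. Gar1, a protein of the small nucleolar complexes that modify RNA, read 1482, 888 and 841 against 8640, 4550 and 4649. The differences were −2.46 ± 0.49, −2.38 ± 0.52 and −2.46 ± 0.55 (limma adjusted p = 0.089, 0.111 and 0.120). Of 5 probe sets for Hnrnpr 4 had this sign. Over its 20 alternatives Hnrnpr ran from −3.56 to −1.39 (limma adjusted p from 0.0221 to 0.501). S100a10, a partner of annexin A2, read 3203, 8370 and 3788 against 32091, 27804 and 19055, which gave −2.46 ± 0.57 (limma adjusted p = 0.131). These 4 genes were named after their values were seen, for passing with the offset.

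Setd6, a lysine methyltransferase known to modify the NF-kappaB subunit RelA, read 12846, 17172 and 27420 in ZsG plus against 1085, 3209 and 2962 in ZsG minus mTEC. The groups did not overlap, ZsG minus cTEC lay between them at a level of 5749, and all 3 probe sets had this sign. The difference was 3.07 ± 0.62 (limma adjusted p = 0.0944). When only genes at 10 or more in ZsG minus cTEC were tested, a choice of genes that does not look at either side, 4 genes were higher (0.0598%) and 48 lower (0.717%), and Setd6, Hnrnpr, Hnrnpll and Gar1 passed (limma adjusted p = 0.0415, 0.0221, 0.0368 and 0.0459). With an offset of 100 added to each intensity, 4 of all genes were higher (0.022%) and 111 lower (0.61%). These held Setd6, Hnrnpr, Hnrnpll, Gar1 and S100a10 (limma adjusted p from 0.032 to 0.0499). The 5 genes were chosen for passing with the offset, and Setd6 for passing the level filter too, so these passes are no support.

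Among genes bright in both groups, the 12 separated genes that were highest and the 12 that were lowest in ZsG plus by size of difference are described next, none past the threshold. Highest was Wdr48, a cofactor of deubiquitinating enzymes, at 8687, 6139 and 39684 in ZsG plus against 1335, 1069 and 1572. Replicate 3 stood well above the others, the difference was 3.29 ± 0.77 (limma adjusted p = 0.138), and 2 of its 4 probe sets went the other way. Rgs1, which shortens G protein signals and is best known from lymphocytes, read 9344, 21341 and 45046 against 2395, 3474 and 2696, and 14926 to 28806 in ZsG minus cTEC. ZsG plus and ZsG minus cTEC overlapped there and both lay above ZsG minus mTEC, with a difference from ZsG minus mTEC of 2.88 ± 0.67 (limma adjusted p = 0.133). Without ZsG plus replicate 1 Rgs1 passed, at an adjusted p of 0.0429.

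Chromatin and RNA regulators were among the other higher genes. Dhx9, an RNA helicase, read 69365, 14843 and 80974 in ZsG plus against 5365, 12707 and 10903 in ZsG minus mTEC, so that replicate 2 came close to the other group. Kmt2c, a histone H3 lysine 4 methyltransferase, read 15959, 26401 and 49211 against 6981, 5342 and 6484. Their differences were 2.27 ± 0.75 and 2.14 ± 0.58. Phf14, a chromatin reader, differed by 2.37 ± 0.73, and Sae1, a subunit of the SUMO activating enzyme, by 2.32 ± 0.57, with 2 of 4 probe sets against it. Ahnak2, a large scaffold protein, read 5677, 11266 and 10368 against 1187, 1502 and 2876. The complement gene C2, the inositol transporter gene Slc5a3, the exchange factor gene Dock6 and the lysosomal membrane gene Gpr137b followed between 2.08 and 2.43, with 1 of 3 probe sets of Slc5a3 and 1 of 2 of Dock6 on that side. Replicate 3 was the highest ZsG plus array in 10 of the 12 higher genes.

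Replicate 3 was also the lowest ZsG plus array in 10 of the 12 lower genes, and in 8 of them it lay in the range of the phe and dap controls. Over all genes bright in both groups it was the lowest in 38.2% and in the control range in 204, against 53 and 54 for replicates 1 and 2. Iapp, which encodes the islet hormone amylin, read 10032, 7492 and 146 against 16823, 26919 and 19847. Without replicate 3 its difference went from −3.22 to −1.26. Rnaseh2b, a subunit of ribonuclease H2, read 11473, 16761 and 210 against 25194, 24693 and 20641, and went from −2.77 to −0.76. Nup62, a nuclear pore gene, went from −2.74 to −0.99, Eid1, a regulator of histone acetylation, from −2.68 to −1.48, and Steap4, a metalloreductase gene, from −2.84 to −1.28. The COP9 signalosome gene Cops2 went from −2.66 to −1.43, and the Fanconi anaemia gene Fancg from −2.79 to −0.49 without replicate 1, its low array. Of 2 probe sets for Fancg 1 had the sign of the fall.

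S100a8, a calcium-binding alarmin of neutrophils and inflamed epithelium, had the steadiest ZsG minus mTEC values of the lower genes. It read 3203, 4053 and 917 in ZsG plus against 16809, 17093 and 16393 in ZsG minus mTEC, with 767 to 1830 in cortical cells. The ZsG plus arrays lay between the other groups, and replicate 3 lay inside the cortical range. The difference was −2.88 ± 0.69 (limma adjusted p = 0.145), or −2.22 without replicate 3. Snhg6, a host gene of small nucleolar RNAs, read 2276, 2330 and 334 against 8641, 10786 and 13966, a difference of −3.17 ± 0.78 (limma adjusted p = 0.154). Amot, an angiomotin of cell junctions, Yipf4, of the Golgi, and Malsu1, of the mitochondrial ribosome, differed by −2.74 ± 0.80, −2.63 ± 0.75 and −2.61 ± 0.68. Of the probe sets, 2 of 3 for Yipf4 and 1 of 2 for Malsu1 had this sign. Over their alternatives Yipf4 ran from −3.74 to −0.92 and Malsu1 from −3.72 to −1.23.

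**Figure D4:**
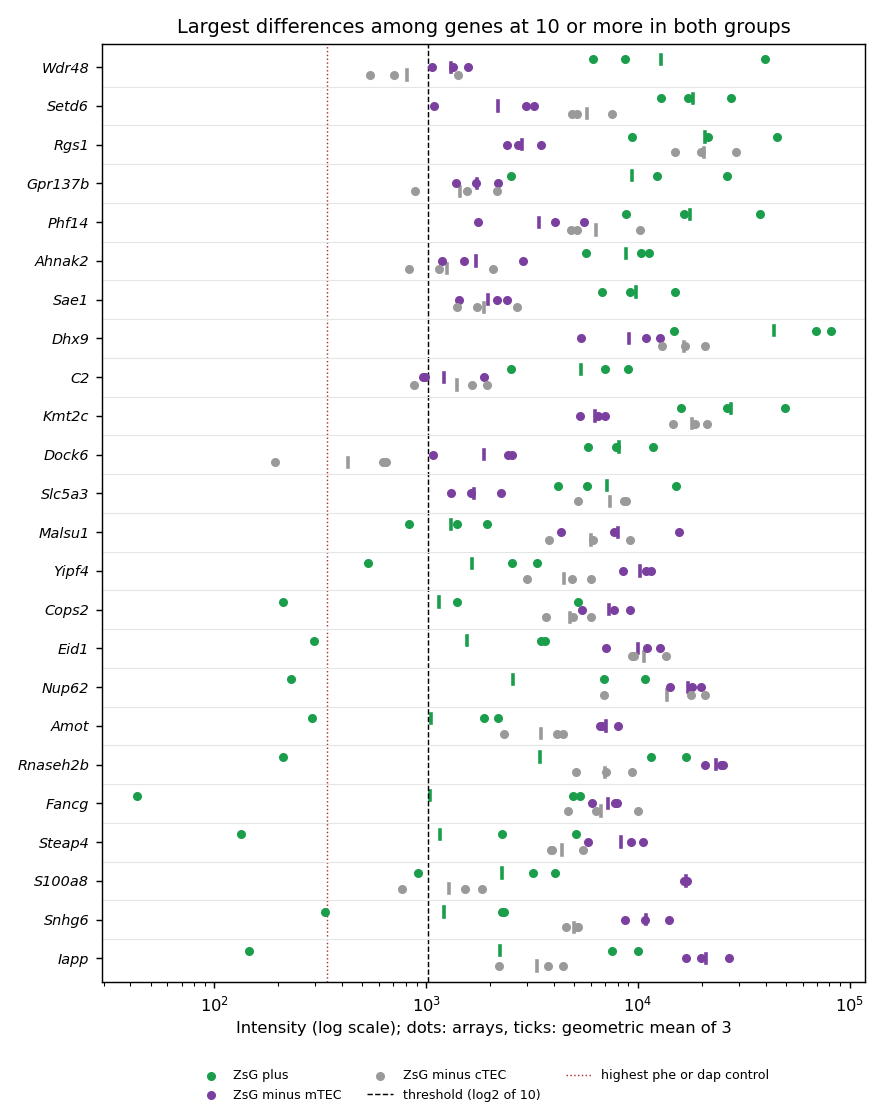
Intensities (x axis, log scale) of the 12 largest separated differences in each direction, higher in ZsG plus at the top and lower at the bottom, among genes at 10 or more in both groups, 1 dot per array and a tick at the geometric mean of 3 arrays, for ZsG plus (green), ZsG minus mTEC (purple) and ZsG minus cTEC (grey). Dashed and dotted lines mark 1024 and 341; in 9 of the lower genes 1 green dot lies left of the dotted line.

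Some genes were bright in ZsG plus and below the level in ZsG minus mTEC, which the level rule itself sets apart. Flt3, the receptor for FLT3 ligand on progenitors and dendritic cells, read 3023, 2606 and 4765 in ZsG plus against 113, 391 and 150 in ZsG minus mTEC. ZsG minus cTEC read 1945 to 8317, so ZsG plus lay in the range of those arrays and clear of ZsG minus mTEC. The difference was 4.16 ± 0.74 (limma adjusted p = 0.0747). The ZsG minus cTEC arrays were also bright in the leukocyte gene Ptprc, at 12873 to 14677. Thymocyte and T cell markers summed to 87446 to 111182 there, 19429 to 31140 in ZsG plus and 15029 to 26329 in ZsG minus mTEC. The part of leukocytes in the Flt3 readings was not tested. Nr4a3, an immediate early nuclear receptor, read 7283, 6969 and 9441 against 630, 849 and 1541, with 7064 to 18757 in ZsG minus cTEC. Tatdn2, a nuclease gene, read 2706, 3587 and 6168 against 326, 440 and 808. Their differences were 3.06 ± 0.61 and 3.0 ± 0.61 (limma adjusted p = 0.0900 and 0.0944). Among genes at 10 or more in ZsG minus cTEC, Flt3, Nr4a3 and Tatdn2 passed (limma adjusted p = 0.0362, 0.0395 and 0.0411). They were named after their values were seen, for passing that fit, so these passes are no support.

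Markers of dendritic cells and macrophages are given beside Flt3, which is one of them. Of 17 measured, 12 read higher and 5 lower in ZsG plus by sign, with a median of 0.16 (0.49 relative to the median of all genes). Their summed intensity was 39645 to 120948 in ZsG plus, 46749 to 63499 in medullary and 26890 to 75925 in cortical reporter-negative cells, and none was listed at 0. Itgax, the integrin of dendritic cells, read 778, 43.2 and 3335 in ZsG plus, over a range wider than both other groups. Cd68, a lysosomal protein of macrophages, read 2524, 1247 and 3263 against 951, 1192 and 1233, a difference of 0.96 ± 0.57 as deposited and −0.14 scaled to the hybridisation controls. The part of such cells in the result was not tested.

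Signs of list medians depended on the scaling. Of the 31 lists, 20 had a median below 0 as deposited and above 0 with centring, and 6 had one above 0 as deposited and below 0 with hybridisation scaling. Counts of separated list members below are set against 5.77% higher and 12.3% lower over all genes. The higher share moved with the level in ZsG minus cTEC: 3.52% at 10 to 11, 16% at 14 to 15 and 39.6% at 15 or more. Of the NF-kappaB list 13 of 16 genes, and of the cathepsin list 12 of 15, were bright in both groups. The part of level in the list counts was not tested.

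The NF-kappaB pathway had the highest median of the 31 gene lists as deposited, while 2 lists lay above it after quantile normalization, the endothelial markers (0.84) and the dendritic cell and macrophage markers (0.63). Of its 16 measured genes 13 were higher and 3 lower by sign, with a median of 0.59 (0.91 relative to the median of all genes), 0.57 after quantile normalization and −0.52 scaled to the hybridisation controls. None passed the threshold, 2 were higher at an unadjusted p under 0.05, and 7 (43.8%, against 5.77% of all genes) had all ZsG plus arrays above all ZsG minus mTEC arrays, with 0 the other way. Among the kinases and adaptors, Ikbkb, the catalytic subunit of the I-kappaB kinase, read 17437, 34176 and 25685 in ZsG plus against 10418, 10434 and 8730 in ZsG minus mTEC. Traf1, an adaptor of TNF receptors, read 28266, 15715 and 13056 against 3331, 10688 and 7766. The groups were separated in both, by 1.34 ± 0.54 for all 5 probe sets of Ikbkb and 1.46 ± 0.67 for Traf1 (limma adjusted p = 0.338 and 0.386).

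The inhibitors of the pathway are among its targets. Nfkbia, the inhibitor I-kappaB alpha, read 120963, 78577 and 131624 in ZsG plus against 71332, 64351 and 67304 in ZsG minus mTEC. It was higher on all ZsG plus arrays as deposited, by 0.67 ± 0.50 (limma adjusted p = 0.575), by 0.07 after quantile normalization and by −0.43 scaled to the hybridisation controls. Nfkbib, the beta inhibitor, differed by 1.67 ± 0.71 as deposited and by −0.31 as the mean of its 2 probe sets, which disagreed. Tnfaip3, a ubiquitin-editing brake on the pathway, overlapped at −0.06 ± 0.57. The transcription factor gene Rel differed by 0.84 ± 0.52, Rela and Relb by 0.38 each, and the target genes Birc3 and Tnfaip2 by 0.52 ± 0.51 and 0.74 ± 0.52. The promoter of Nfkbia is shown because it is the brightest gene of the list and its own pathway acts on it. The RefSeq window on GRCm38.p6, chr12:55492648-55492897 on the minus strand, ends at the base before the start of the gene, is written 5′ to 3′ along the gene, and has a match to the kappa-B consensus in capitals.
Nfkbia: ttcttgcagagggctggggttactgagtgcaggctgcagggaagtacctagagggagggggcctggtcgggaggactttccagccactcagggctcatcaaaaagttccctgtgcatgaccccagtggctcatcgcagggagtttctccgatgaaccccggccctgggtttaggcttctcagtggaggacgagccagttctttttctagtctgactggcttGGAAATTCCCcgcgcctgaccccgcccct

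The match lies 29 bases before the start. On both strands of such windows, 3.75% of 27025 genes and 5.13% of 3954 genes bright in both groups held the consensus, as did 5 of 14 genes of the list (35.7%). A match is a description of the sequence and no measure of binding. The TNF receptor family genes, upstream of this pathway, had a median of −0.15 over 15 genes. Its medullary receptor gene Tnfrsf11a, which encodes RANK, differed by −0.83 and Cd40 by 0.35.

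The bright genes of antigen presentation lay among those whose direction depends on the scaling. Cd74, the invariant chain of MHC class II, read 189639, 166677 and 244598 in ZsG plus against 119763, 119388 and 102605 in ZsG minus mTEC. B2m, the light chain of class I, read 192643, 166444 and 240667 against 122483, 114006 and 117370. All ZsG plus arrays were above as deposited, by 0.80 ± 0.49 and 0.75 ± 0.49, while quantile normalization gave 0.01 and −0.10 and hybridisation scaling −0.30 and −0.36. Ciita, the activator of class II genes, is dimmer: it read 4185, 3637 and 2323 against 2127, 1491 and 1580, or 0.94 ± 0.52 as deposited, 1.13 after quantile normalization and −0.16 with hybridisation scaling. The class I and class II lists had medians of 0.13 and −0.05. Psmb10, a subunit of the immunoproteasome, read 5276, 4428 and 4480 against 9579, 9015 and 8677, tight groups that differed by −0.95 ± 0.47 (limma adjusted p = 0.424).

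Lysosomal proteases that cut antigens differed from one another. Ctsa, cathepsin A, read 4020, 4459 and 3348 in ZsG plus against 1266, 1215 and 2046 in ZsG minus mTEC, with 4285 to 5630 in cortical cells. Ctsd, cathepsin D, read 10481, 4862 and 6965 against 3385, 3674 and 2154. The groups were separated in both, by 1.42 ± 0.51 and 1.24 ± 0.54 (limma adjusted p = 0.290 and 0.362). Ctss, cathepsin S, the main class II protease of such cells, overlapped at −0.06 ± 0.52. Of 15 genes of cathepsins and their inhibitors 5 were separated and higher (33.3%, against 5.77% of all genes) and 1 was lower (6.67%, against 12.3%), with a median of −0.06 as deposited and 0.16 after quantile normalization. That 1 was Stfa3, a stefin that inhibits cathepsins, at 46.5, 12.2 and 272 against 3408, 5219 and 2493 (−6.05 ± 1.23; limma adjusted p = 0.0943), named after its values were seen.

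Epidermal differentiation genes went both ways. Sprr1a, a cornified envelope protein, read 67282, 98075 and 49665 in ZsG plus against 29240, 33131 and 22849 in ZsG minus mTEC. Flg, the filaggrin gene, read 4914, 4140 and 3963 against 1465, 2684 and 1858. Krtdap, a secreted protein of differentiating keratinocytes, read 8167, 7030 and 2438 against 16141, 14951 and 9789. Sprr1a and Flg were higher on every ZsG plus array and Krtdap lower, by 1.30 ± 0.56, 1.15 ± 0.51 and −1.36 ± 0.62 (limma adjusted p = 0.361, 0.373 and 0.384), and hybridisation scaling brought Sprr1a to 0.19 and Flg to 0.05. Over 33 measured genes the median was −0.19 (0.14 relative to the median of all genes) and 0.02 after quantile normalization. Of them 3 (9.09%, against 5.77% of all genes) were separated and higher, Krt10 among them at 0.26 ± 0.52, and 1 (3.03%, against 12.3%) was lower.

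The promoters of Sprr1a, Flg and S100a8, all on chromosome 3 and not all on the same side of the comparison, are shown with the letters TATAAA in capitals. Windows are from RefSeq on GRCm38.p6, 5′ to 3′ along the gene, and end at the base before its start: chr3:92485882-92486131 on the minus strand for Sprr1a, chr3:93273296-93273545 on the plus strand for Flg and chr3:90668821-90669070 on the plus strand for S100a8.
Sprr1a: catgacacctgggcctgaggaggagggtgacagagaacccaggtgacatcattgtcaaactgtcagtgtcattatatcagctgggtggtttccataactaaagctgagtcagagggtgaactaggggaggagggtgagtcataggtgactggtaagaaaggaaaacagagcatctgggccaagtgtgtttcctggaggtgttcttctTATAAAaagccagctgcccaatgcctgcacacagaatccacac
Flg: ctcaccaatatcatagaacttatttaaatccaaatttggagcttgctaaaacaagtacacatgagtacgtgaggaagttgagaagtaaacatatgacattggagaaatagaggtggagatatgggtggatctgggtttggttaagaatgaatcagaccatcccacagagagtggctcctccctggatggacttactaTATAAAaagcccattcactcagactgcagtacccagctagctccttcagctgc
S100a8: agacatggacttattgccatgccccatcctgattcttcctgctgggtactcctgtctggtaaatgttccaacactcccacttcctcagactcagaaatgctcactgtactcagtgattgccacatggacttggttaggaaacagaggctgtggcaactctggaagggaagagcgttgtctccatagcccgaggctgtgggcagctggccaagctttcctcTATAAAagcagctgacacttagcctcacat

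The letters begin 43, 53 and 30 bases before the start. On both strands TATAAA occurred in 12 of 25 epidermal list genes with a window (48.0%), in 7.59% of genes bright in both groups and in 13% of all 27025 genes. The same letters thus stood before genes that read higher and a gene that read lower in ZsG plus.

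Genes of oxidative phosphorylation, the respiratory chain of mitochondria, lay lower in ZsG plus by sign in nearly the whole list. Of its 28 genes 26 were lower by sign, with a median of −0.84 (−0.51 relative to the median of all genes), and −1.02 after quantile normalization. None passed the threshold; 4 were lower and 0 higher at an unadjusted p under 0.05. ZsG plus lay below ZsG minus mTEC on every array in 11 (39.3%, against 12.3% of all genes) and above in 1 (3.57%, against 5.77%). Ndufa2, of complex I, read 9516, 6710 and 5622 against 20232, 16650 and 13933. Sdhd, of complex II, read 1596, 4909 and 4639 against 17235, 8446 and 14463. Both were separated, by −1.24 ± 0.50 and −1.95 ± 0.76 (limma adjusted p = 0.343 for both). Cox4i1, of complex IV, differed by −2.54 ± 1.20, or −0.88 without replicate 3, which read 354. The exception was Atp5a1, of the ATP synthase, at 0.53 ± 0.49 as deposited, −0.08 after quantile normalization and −0.58 with hybridisation scaling.

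Ribosomal protein genes had a median of −0.49 over 19 genes (−0.16 relative to the median of all genes) and −0.78 after quantile normalization. Rps19 read 1737, 5373 and 6365 against 9942, 12544 and 11133, a separated −1.52 ± 0.62 (limma adjusted p = 0.343). Immediate early and heat shock genes had a median of 0.28 over 26 genes (0.60 relative to the median of all genes) and 0.02 after quantile normalization. Hsph1, a chaperone of the heat shock response, read 49789, 60960 and 166266 against 32860, 27970 and 26735, or 1.45 ± 0.60 (limma adjusted p = 0.344). Egr1 differed by 0.75 ± 0.50 and Jun by 0.46 ± 0.48, to −0.36 and −0.65 with hybridisation scaling.

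Separated genes of the mature medullary programme were near the share of all genes on the lower side. Of 16 measured genes of mature medullary cells and the Aire programme, 0 were separated and higher and 2 lower (12.5%, against 12.3% of all genes), with a median of −0.19 as deposited and 0.43 with centring. Hdc, which makes histamine, read 5975, 7429 and 6797 in ZsG plus against 10716, 10609 and 14676 in ZsG minus mTEC, a difference of −0.82 ± 0.54 (limma adjusted p = 0.532). Cldn4, a tight junction gene, read 4936, 3474 and 3777 against 5497, 5853 and 6031, at −0.53 ± 0.70 as deposited and 0.10 with centring at the median. Cd80, a costimulatory ligand of mature cells, read 3278, 10024 and 9597 against 10028, 8111 and 8835, and overlapped. General medullary markers, a list of its own, had a lower median, −0.97 over 9 genes (−0.64 relative to the median of all genes). It was −0.63 after quantile normalization and −0.34 with centring. Of the 9 genes 6 were lower and 3 higher by sign. On separation, 1 was higher (11.1%, against 5.77% of all genes) and 0 lower (against 12.3%).

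Tissue-restricted antigens are the genes that medullary cells borrow from other organs. Of 27 measured, 5 were separated and lower (18.5%, against 12.3% of all genes) and 0 higher, with a median of −0.61 (−0.28 relative to the median of all genes), and 0.02 with centring. Apoa1, a lipoprotein of liver and gut, read 6176, 7504 and 3137 in ZsG plus against 11003, 17987 and 15703 in ZsG minus mTEC. The groups were apart by −1.47 ± 0.57, and all 4 probe sets had this sign (limma adjusted p = 0.320). The milk casein gene Csn1s2a read 38816, 1152 and 156 against 57100, 25564 and 16921, and 3 of its 5 probe sets had this sign. Replicates 2 and 3 were far below it, and replicate 1 lay inside the ZsG minus mTEC range. The brightest genes of the list overlapped between the groups. Csn2, also a casein gene, differed by 0.13 ± 0.63, Fabp9 by 0.27 ± 0.66 and Reg3g by 0.18 ± 0.53. Intensities summed over the list overlapped too, at 198903 to 296704 in ZsG plus and 245330 to 304900 in ZsG minus mTEC.

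Neuroendocrine and neuronal genes had a median of −1.15 over 22 genes (−0.83 relative to the median of all genes), and 12 of them were below the level in both groups. By sign 8 were higher and 14 lower, with differences up to 2.26. On separation, 2 were higher (9.09%, against 5.77% of all genes) and 5 lower (22.7%, against 12.3%). Insm1, a transcription factor of endocrine cells, read 10457, 20939 and 1652 in ZsG plus against 33704, 35575 and 34457 in ZsG minus mTEC. It was lower on each ZsG plus array, by −2.28 ± 0.87 (limma adjusted p = 0.314) and −1.22 without replicate 3. Snap25, of synaptic vesicle fusion, differed by −1.47 ± 0.71. The granule gene Chga overlapped, at 9386, 216 and 4774 against 2994, 1774 and 2753, and so did Syt1 of the same list, at 0.03 ± 0.59. In the gut and mucosal list Muc13, a membrane mucin, read 29059, 10879 and 41218 against 6176, 8722 and 10397, or 1.51 ± 0.66 (limma adjusted p = 0.361), while the list median was −0.35.

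Genes of thymic epithelial identity went both ways. Of 18 measured, 8 were higher and 10 lower by sign, and 3 were separated and higher (16.7%, against 5.77% of all genes) and 5 lower (27.8%, against 12.3%). Krt8, a keratin of simple epithelium, read 58882, 63161 and 77587 in ZsG plus against 44206, 39917 and 37980 in ZsG minus mTEC, or 0.70 ± 0.48 as deposited, 0.28 after quantile normalization and −0.40 with hybridisation scaling. Pax9, needed for the pharyngeal pouches, read 4232, 404 and 1401 against 4333, 4738 and 7608, and Eya1 read 642, 2386 and 1124 against 2428, 3723 and 2475. Both were lower, with the nearest arrays almost touching, by −2.01 ± 0.82 and −1.23 ± 0.65 (limma adjusted p = 0.343 and 0.441). Krt14 and Trp63, of basal epithelium, varied widely: Krt14 read 9332, 4428 and 206 in ZsG plus, and Trp63 read 1561, 13123 and 1089.

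**Figure D5:**
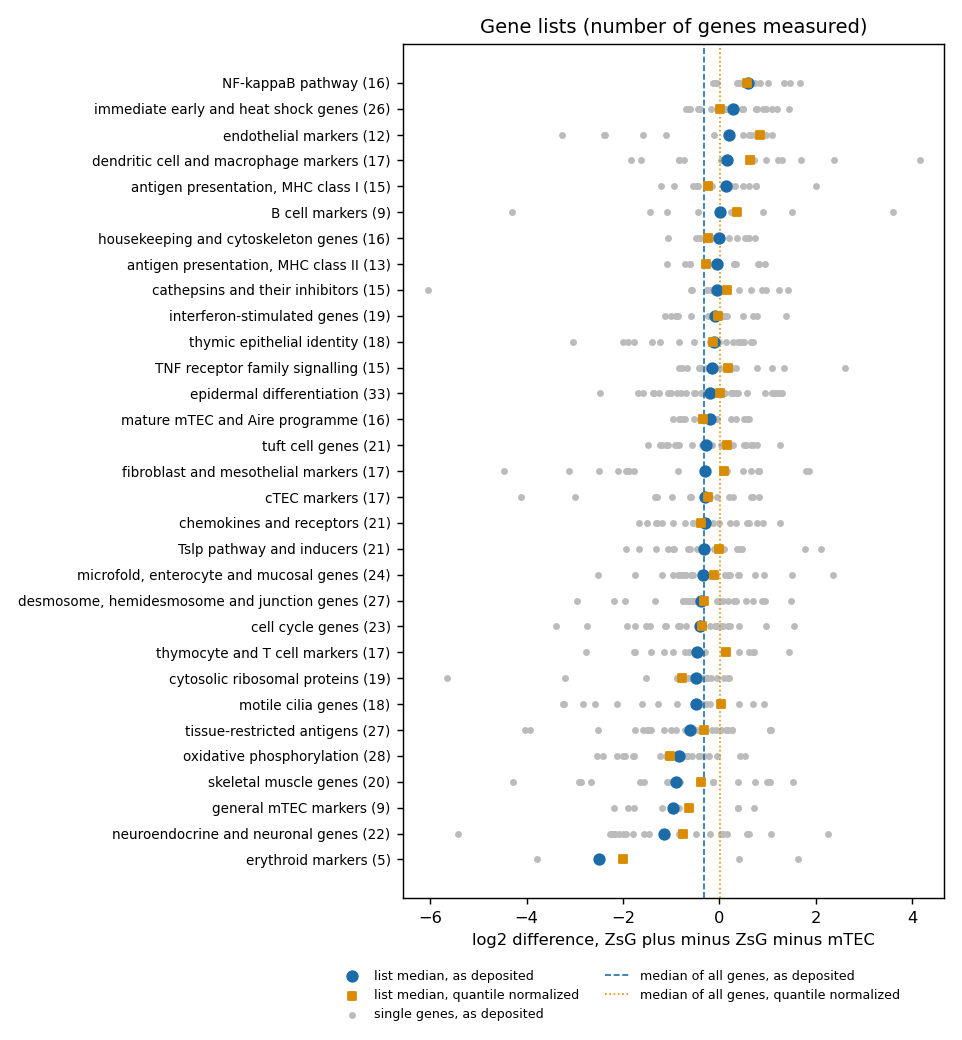
Log2 difference between ZsG plus and ZsG minus mTEC (x axis) for 31 gene lists (y axis, number of genes measured in brackets): grey dots are single genes as deposited, blue circles list medians as deposited, orange squares list medians after quantile normalization, and vertical lines the medians of all genes on the same scales. The NF-kappaB pathway is at the top, at 0.59, and the 28 oxidative phosphorylation genes at −0.84.

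Markers of other cells differed in level. Of 12 endothelial markers 0 reached it in either group, and of 9 B cell markers 1 did. Of 17 dendritic cell and macrophage markers 8 did, and of 17 fibroblast and mesothelial markers 11. Among the fibroblast and mesothelial markers 3 were separated and lower (17.6%) and 2 higher (11.8%), and Upk3b, a uroplakin of mesothelium below the level in both groups, fell, by −4.48 with ZsG plus readings under 341 (limma adjusted p = 0.0409), although 1 of its 2 probe sets had the other sign. It was named after its values were seen. Igfbp5, a binding protein of insulin-like growth factors, read 17730, 11182 and 537 in ZsG plus against 12576, 22719 and 20935 in ZsG minus mTEC, and overlapped. The erythroid markers had a median of −2.49 over 5 genes, and of −0.85 with an offset added to each intensity. By sign 2 were higher and 3 lower, with differences from −3.78 to 1.63, and 4 were below the level in both groups. On separation, 0 were higher and 2 lower. Alas2, of this list, read 1492, 82.3 and 43.3 in ZsG plus against 1171, 905 and 946 in ZsG minus mTEC, and overlapped. Slc4a1, the red cell anion exchanger, read 11.4, 257 and 234 in ZsG plus against 1178, 1192 and 1256 in ZsG minus mTEC. The groups did not overlap, at −3.78 ± 1.23 (limma adjusted p = 0.247), but all 3 ZsG plus readings lay under the highest control reading of 341, so the size is not settled. Of 17 thymocyte and T cell markers 1 was separated and higher and 1 lower (5.88% each, against 5.77% and 12.3% of all genes). The higher one was Ptprc, the leukocyte gene CD45, at 3577, 3901 and 4219 against 3163, 2085 and 2100, with 12873 to 14677 in ZsG minus cTEC. It differed by 0.70 ± 0.49 as deposited and −0.41 with hybridisation scaling. Sex-linked genes varied too: the Y-linked Eif2s3y read 185, 1312 and 74.9 in ZsG plus against 1445, 1652 and 1067 in ZsG minus mTEC, and Xist ran from 34325 to 71819 over the 6 arrays. The part of these in the results was not tested.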

How the data were processed

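Gene expression was measured on 9 arrays, and the values analysed were the authors' deposited probe set intensities on a linear scale. Each array had the same trimmed mean of 1250, with 2% removed at each end, as a check of the values showed, and the software is not given in the sources used here. Log2 values were computed without an offset. Of 45101 probe sets 34958 had 1 gene symbol in the annotation table, and each gene was represented by its brightest probe set on average over the arrays. The 9211 with no symbol and 932 with several were left out. No detection calls were analysed here, and the number of arrays limits the precision.

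The comparison used limma 3.58.1 under R 4.3.3 (lmFit and eBayes, with a coefficient for each group, 6 residual and 3.28 prior degrees of freedom). Two-sided p-values were adjusted by Benjamini-Hochberg over 18194 genes, with a threshold of 0.05. A value after ± is the standard error of its log2 difference, and levels are geometric means of intensity. "Separated" means that the 3 arrays of a group lay on one side of the 3 of the other. A simulation over 18194 genes gave 50 genes each a fall in ZsG plus of 1, 2, 4 or 6 (log2). The genes were drawn from those bright in both groups, with independent normal noise at each gene's measured SD in its group. Rises, and changes of dim genes, were not simulated. The fit recovered 0%, 12%, 72% and 96% of the falls, so falls of 1 or 2 in such genes were mostly missed. It also called 66 unchanged genes, more than the 40 genes called in the measured data. A single call, or the lack of one, is therefore weak evidence.

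The members and the 31 lists (600 distinct genes, 539 measured) were chosen with earlier results of these data known. Genes named were Tslp, the well-measured genes past the threshold, the 12 largest separated differences each way bright in both groups without unnamed clones, the brightest 6 of each group, up to 3 bright and 4 separated members of each list, and those nearest the threshold. Other genes were chosen after their values were seen, or quoted as background to these. Alternatives were quantile normalization, centring, array weights, 6 arrays only, a mean-variance trend, level filters, the mean of all probe sets, an offset, a replicate block and leaving out each array. Scaling to the hybridisation controls was added after seeing the data.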

Additional observations from a re-analysis of the deposited data

How the results depend on the processing

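Both the calls and the balance of directions depended on the scaling, and the calls also on the estimate of the spread. At an unadjusted p under 0.05 there were 582 genes higher and 1855 lower as deposited, 1696 and 870 with centring, 1360 and 1152 with quantile normalization and 72 and 5540 with hybridisation scaling. Over all genes, 3 were higher and 37 lower, against 0 and 0 with 6 arrays only and with array weights, 1 and 2 with centring, 0 and 14 with a mean-variance trend and 7 and 17 with quantile normalization. An offset gave 111 lower, hybridisation scaling, chosen after seeing the data, gave 709 lower, and a filter at the 40th percentile gave 0 higher. Leaving out each array gave 0 to 21 higher and 0 to 209 lower. Where 0 genes passed in limma, 419 higher and 1366 lower (6 arrays) and 255 and 1450 (weights) had an unadjusted p under 0.05. The share of calls that were higher was 7.5%, against 33.3% with centring, 29.2% with quantile normalization and 0.421% with hybridisation scaling.

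Of the well-measured genes 12 were lower, against 0 with 6 arrays only and with array weights, 1 with centring, 39 among genes bright in ZsG minus cTEC, 83 with an offset, 331 with hybridisation scaling, 29 and 5 at levels of 9 and 11, and 0 to 101 leaving out each array. None was higher, against 4 among genes bright in ZsG minus cTEC, 4 with an offset and 0 to 4 leaving out each array. Of those bright in both groups 0 passed, against 4, 1, 5 and 32 with the level filter, the trend, the offset and hybridisation scaling, and 0 to 8 leaving out each array. Deviations from the group means correlated at r of 0.013, −0.015 and 0.009 between same-numbered ZsG plus and ZsG minus mTEC arrays. These r were taken over all genes, many of them dim, so they cannot show whether the numbers pair the samples. With the replicate block 0 genes were higher, 0 lower and 0 well-measured genes called (542 higher and 1778 lower at an unadjusted p under 0.05 in limma).

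Of 179 named genes the sign turned in 65 with hybridisation scaling (37 of the 123 with separated groups), in 18 with quantile normalization (6 of 123) and in 25 with centring (5 of 123). With hybridisation scaling they included Actb (−0.38), Actg1 (−0.49), Atp5a1 (−0.58), B2m (−0.36), Cd68 (−0.14), Cd83 (−0.29), Cdkn1a (−0.14), Ciita (−0.16), Cxcl1 (−0.31), Dsp (−0.22), H2-Ab1 (−0.27), H2-K1 (−0.35), Jund (−0.34), Krt17 (−0.40), Krt18 (−0.45), Krt19 (−0.28), Krt8 (−0.40), Lrmp (−0.56), Muc1 (−0.18), Oas1a (−0.41) and Ptprc (−0.41). With quantile normalization they included Atp5a1 (−0.08) and B2m (−0.10), with centring the 5 with separated groups were Ccl9 (0.08), Cldn4 (0.10), Hsp90aa1 (0.21), Jup (0.24) and Usp18 (0.43), and with the mean of all probe sets they included Nfkbib (−0.31). The cause of these changes was not tested. Of the 31 lists 18 had a median above that of all genes, and 12 to 20 over the alternatives run for lists.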

Other observations

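The brightest genes of both groups were largely shared. Malat1, a nuclear long noncoding RNA, read 284348, 302500 and 423749 in ZsG plus and 164449, 149216 and 157368 in ZsG minus mTEC, or 1.08 ± 0.50 as deposited, 0.00 after quantile normalization and −0.02 scaled to the hybridisation controls. Adm, the vasodilator peptide adrenomedullin, read 132765, 153305 and 247448 against 60687, 68482 and 60073. It kept a positive difference over its 20 alternatives, between 0.34 and 2.07, although 1 of its 2 probe sets had the other sign (1.44 ± 0.53; limma adjusted p = 0.297). Ivns1abp, an actin-binding protein gene, differed by 1.25 ± 0.54, between 0.14 and 1.87 over its alternatives.

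Chemokine and interferon genes were mixed. Cxcl1, a neutrophil attractant, read 69300, 50156 and 113246 in ZsG plus and 39180, 42990 and 45024 in ZsG minus mTEC, and Cxcl9, which attracts activated T cells, read 5143, 6851 and 1242 against 8979, 11417 and 13361. They lay on opposite sides at 0.79 ± 0.54 as deposited (−0.31 with hybridisation scaling) and −1.66 ± 0.79 (limma adjusted p = 0.546 and 0.406). Ifit1, an antiviral effector, read 48713, 34302 and 98237 against 20390, 26049 and 17166, and Irf7, a regulator of interferon genes, read 1451, 1482 and 1489 against 3101, 1713 and 4008. Their differences were 1.39 ± 0.61 and −0.91 ± 0.57 (limma adjusted p = 0.367 and 0.513).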
